A study of Homo sapiens and Mus musculus with 18 samples.

Results

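Mitochondria make few of their own proteins and take in nearly all the others from the cytosol. The genes described here encode the machines that carry out this import, together with the chaperones and proteases that fold, process or remove proteins once they are inside. They were chosen by name: human protein-coding genes whose symbol starts with TIMM or TOMM followed by a digit, and a list of 15 others. GENCODE 29 holds 40 such genes, and 37 of them, 22 TIMM or TOMM genes and the 15 listed ones, were among the 34505 human rows of the counts, of which 18929 are protein-coding. TIMM22, TIMM23 and TOMM34 were not analysed here.

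A precursor protein first meets the translocase of the outer membrane (TOM), where TOMM20, TOMM22 and TOMM70 act as receptors and TOMM40 forms the pore. From there, barrel-shaped outer membrane proteins pass to the sorting and assembly machinery built around SAMM50, the small Tim chaperones escort carrier proteins to the inner membrane, and precursors with a presequence enter through the TIM23 translocase. The motor around the matrix Hsp70 HSPA9 pulls the chain in, the peptidase PMPCA-PMPCB removes the presequence, the HSPD1-HSPE1 chaperonin helps it fold, and the proteases LONP1 and CLPXP degrade what is damaged or no longer needed.

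The study measured RNA in pancreatic cancer cell lines whose amount of keratin 17 (K17, encoded by KRT17), an intermediate filament protein that the study's title places in mitochondria, had been changed. The groups used here are L3.6 cells with K17 knocked out, L3.6 wild type cells, PANC-1 cells over-expressing K17 and PANC-1 cells with an empty vector, with 3 libraries each. The labels call both lines pancreatic ductal adenocarcinoma and give no treatment besides K17. They do not say whether replicates were separate cultures or whether the knockout or the K17 cells came from 1 clone, so K17 and a difference between clones or cultures cannot be told apart. The p-values rest on the spread among the 3 libraries of a group, which may be technical.

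KRT17 followed the labels, with 202, 204 and 175 counts in L3.6 knockout libraries against 1654, 1112 and 1420 in wild type libraries, and with 8597, 9884 and 9228 counts in PANC-1 K17 libraries against 2, 0 and 0 in empty vector libraries. Library totals were 9485257 to 15476629 counts in L3.6 and 59671178 to 70789559 in PANC-1, of which the members together took 0.187% to 0.224% and 0.218% to 0.249%. The epithelial marker genes summed to 3826 to 4131 CPM (counts scaled by library size) in L3.6 knockout libraries, 3221 to 3613 CPM in L3.6 wild type libraries and 927 to 1742 CPM in PANC-1, and acinar and islet markers to at most 0.325 CPM. The fibroblast marker list summed to 139 to 145 CPM in PANC-1 K17 libraries and 26.7 to 44.1 CPM in empty vector libraries; COL1A1 alone made up most of it, and LUM and DCN were at most 0.0324 and 0.866 CPM there. COL3A1 of the same list went the other way, with a mean of 0.399 CPM in K17 cells and 2.87 CPM in empty vector cells (log2 fold change -2.84, edgeR adjusted p 0.0152). The squamous list summed to 395 to 414 CPM in L3.6 knockout libraries and 278 to 301 CPM in wild type libraries, nearly all of it TP63. In L3.6 the epithelial keratins KRT19 and KRT7 (log2 fold changes 0.30 and 0.52, edgeR adjusted p 0.0212 and 0.0326) were also called higher in knockout than in wild type cells, and COL1A1 (-0.41, 0.0211) and the endothelial marker PECAM1 lower, the last at means of 3.62 and 9.57 CPM (-1.40, 0.00468). The part of these marker genes in the L3.6 results was not tested. Leukocyte and endothelial lists reached at most 6.11 and 12.9 CPM in L3.6 and 51.0 and 2.66 CPM in PANC-1. PANC-1 empty vector replicate 2 was unlike the rest of its line. On mitochondrial DNA genes it had 18.8% of its counts, against 9.88% to 10.8% elsewhere in PANC-1. The PANC-1 tests were therefore run with and without it, while marker sums, levels per kb and shares of member CPM include it. It held the highest PANC-1 sums of the epithelial, leukocyte and endothelial lists. The epithelial sum was 1742 CPM there, against 927 to 1056 CPM elsewhere in PANC-1. In L3.6, wild type replicate 1 had a score of 7.44 on the first principal component, the knockout libraries had scores of -40.6 to -18.6, and wild type replicates 2 and 3 had 40.1 and 41.3. The share of counts on the row AC010970.1 was 4.34% to 6.96% in knockout libraries and 6.05%, 13.5% and 14.1% in the 3 wild type ones, in replicate order; without that row 1 member was again called in L3.6 (LONP1, beside 9.88% of all rows).

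All 37 members had counts in both lines, from receptors to proteases, but their levels covered a wide range. CPM were divided by exon length in kilobases to set genes beside each other, which is a description with no test between lines. TOMM6, a small TOM subunit, had the highest level per kb in all 4 groups, with means of 169 CPM per kb in L3.6 knockout, 153 in L3.6 wild type, 156 in PANC-1 K17 and 206 in PANC-1 empty vector cells. All of its exon bases are shared with the annotated gene AL365205.1 on the same strand, so its level is uncertain. TOMM7, another small TOM subunit, came next in L3.6 with 101 CPM per kb in knockout and 90.6 in wild type cells, followed by the pore gene TOMM40 with 56.3 and 51.2.

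PANC-1 had a different order. TOMM70, the receptor for carrier precursors, was second there with 84.0 CPM per kb in K17 cells and 78.6 in empty vector cells, and TIMM50, the presequence receptor of TIM23, came next with 51.5 and 68.0. In L3.6 knockout and wild type cells TOMM70 had 29.1 and 31.0 CPM per kb, and TIMM50 had 17.6 and 13.9. LONP1 ran the other way, with 42.5 and 37.1 CPM per kb in L3.6 knockout and wild type cells and 11.9 and 10.7 in PANC-1 K17 and empty vector cells. As shares of the summed member CPM of a library, the TIM23 genes held 9.10% to 10.0% in L3.6 and 23.0% to 31.6% in PANC-1. The matrix proteases held 15.7% to 17.3% and 6.63% to 8.86%. Empty vector replicate 2 set the 31.6% and the 6.63%, and the other PANC-1 libraries had 23.0% to 23.7% and 8.46% to 8.86%. Empty vector means per kb also include it. Without it, mean CPM in empty vector and in K17 cells were 102 and 99.6 for TOMM6 and 378 and 356 for TIMM50. They were 482 and 453 for TOMM70, and 46.9 and 60.6 for LONP1.

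**Figure D1:**
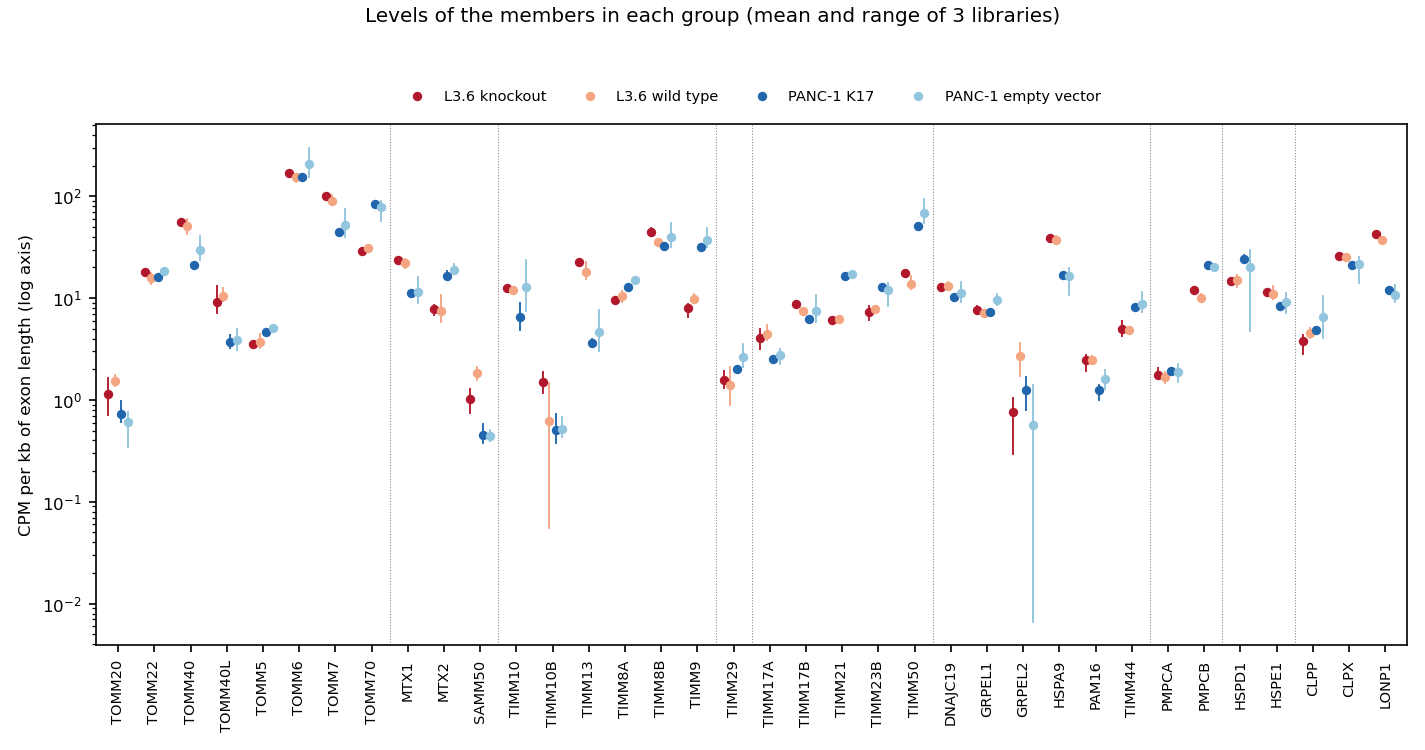
Levels of the members in L3.6 knockout, L3.6 wild type, PANC-1 K17 and PANC-1 empty vector cells, as CPM per kilobase of exon length on a log axis. Points are means and bars run over the 3 libraries of a group; TOMM6 is highest in all 4 groups, and TOMM70 and TIMM50 follow it in PANC-1.

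Core genes were also among the lowest. TOMM20, the presequence receptor of TOM, had 5.80, 2.52 and 3.79 CPM in L3.6 knockout libraries against 4.90, 5.20 and 6.26 CPM in wild type libraries, and 2.22, 3.45 and 2.13 CPM in PANC-1 K17 libraries against 2.7, 1.23 and 2.59 CPM in empty vector libraries. The groups overlapped in both lines. TOMM20L, a TOMM20 paralogue, had 0 to 10 counts in any library and was the only member below the filter on low counts, so 36 members were tested. A row may hold part of a gene's reads, so levels may not compare between genes.

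The question in L3.6 is how these genes stand when K17 is removed. Transcripts of the import machinery mostly lay close to their wild type level, and LONP1 was the only member that passed the test. In edgeR's quasi-likelihood test with Benjamini-Hochberg adjustment over all 13891 rows tested, 1 of 36 members rose and 0 fell, beside 9.61% of all rows called (6.1% higher and 3.51% lower). At an unadjusted p below 0.05 there were 4 members higher and 2 lower, beside 14.9% and 12.8% of all rows. The median log2 fold change of the members was 0.05, with 22 above 0 and 14 below, and that of all rows was -0.01. The 95% interval of the fold change lay within 1.5-fold either way for 25 members and within 2-fold for 31. Without wild type replicate 1, 10 members were called (8 higher and 2 lower, beside 17.2% of all rows). Without knockout replicate 2 or 3 or wild type replicate 2 or 3, 0 members were called. The share of all rows called in the fits with 0 is not given here.

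LONP1, the ATP-dependent Lon protease of the matrix, had 212, 223 and 214 CPM in L3.6 knockout libraries, against 196, 185 and 185 CPM in wild type libraries. All 3 knockout libraries were above all 3 wild type libraries. The knockout level was 1.15-fold the wild type level (95% interval 1.06 to 1.24), or 0.20 ± 0.05 (SE) as a log2 fold change, with an adjusted p of 0.0449 in edgeR's test. The call was near the threshold: of 13 alternatives 4 kept it, and the adjusted p was between 0.0142 and 0.185. With replicate numbers as a block it was 0.157, and the call was also lost when any library but wild type replicate 1 was left out.

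Of the outer membrane genes, SAMM50, the core of the sorting and assembly machinery, showed groups that did not overlap. It had 8.19, 4.75 and 6.66 CPM in knockout libraries, against 10.1, 13.6 and 12.2 CPM in wild type libraries. Every knockout library was below every wild type library, at a log2 fold change of -0.87 ± 0.23 (SE) and an adjusted p of 0.0506 in edgeR's test, which missed the threshold, and 7 of 13 alternatives called it. The pore gene TOMM40 had 200.2, 209 and 201 CPM in knockout libraries, against 218, 182 and 155 CPM in wild type libraries, which overlapped (log2 fold change 0.13, edgeR adjusted p 0.458). The carrier receptor TOMM70 had 154, 161 and 155 CPM in knockout libraries, against 179.5, 168 and 153 CPM in wild type libraries, which also overlapped (-0.09, edgeR adjusted p 0.370).

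At the inner membrane and in the matrix, several rows had groups that did not overlap but missed the threshold. TIMM50 had 115, 125 and 124 CPM in knockout libraries against 114, 88.7 and 85.8 CPM in wild type libraries, so that wild type replicate 1 stood next to the knockout libraries (0.33 ± 0.11, edgeR adjusted p 0.0962). PMPCB, the catalytic subunit of the processing peptidase, had 56.0, 60.8 and 58.7 CPM in knockout libraries against 52.7, 47.4 and 46.6 CPM in wild type libraries (0.26 ± 0.08, edgeR adjusted p 0.0716). In all, 5 members were higher in every knockout library than in any wild type library (TIMM8B, TIMM17B, TIMM50, PMPCB and LONP1) and 3 were lower in every one (SAMM50, TIMM9 and GRPEL2), beside 17.9% and 15.3% of all rows.

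GRPEL2, a nucleotide exchange factor of the matrix Hsp70, had the most negative estimate and is named because of it. It had 4.64, 4.24 and 1.32 CPM in knockout libraries against 7.64, 11.9 and 16.0 CPM in wild type libraries, from 60, 59 and 17 counts against 120, 110 and 189. The groups did not overlap, the log2 fold change was -1.79 ± 0.46 and the edgeR adjusted p was 0.0508. Its partner HSPA9 had 321, 336 and 316 CPM in knockout libraries against 336, 283 and 303 CPM in wild type libraries, which overlapped (0.07, edgeR adjusted p 0.509).

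The chaperonin and the ClpXP protease gave no call in L3.6. HSPD1, the Hsp60 subunit, had 66.5, 61.4 and 58.4 CPM in knockout libraries against 63.9, 71.9 and 54.6 CPM in wild type libraries, and its log2 fold change was -0.03. HSPE1, the Hsp10 co-chaperonin, had 21.6, 24.1 and 22.3 CPM against 25.8, 19.7 and 19.5 CPM in wild type libraries (0.06). Both pairs of groups overlapped. CLPX, the unfoldase of ClpXP, had 137, 147 and 139 CPM in knockout libraries against 139, 136 and 136 CPM in wild type libraries (0.04), and CLPP, its peptidase, had 9.89, 6.40 and 9.83 CPM against 9.17, 11.7 and 9.98 CPM in wild type libraries (-0.24). These groups overlapped as well.

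In PANC-1 the question is how the members stand when K17 is added. With all 6 libraries, 0 of 36 members passed edgeR's quasi-likelihood test with Benjamini-Hochberg adjustment, beside 0.644% of 16295 rows, and the lowest adjusted p was 0.440. At an unadjusted p below 0.05 there were 0 members higher and 1 lower, beside 6.47% and 3.56% of all rows. DESeq2 called 0 (beside 3.65% of all rows), and limma voom with quality weights per library called 6 (beside 18.7%). The median log2 fold change of the members was -0.13 (all rows 0.01), with 10 above 0 and 26 below. Of all rows, 8338 were above 0 and 7957 below. Without empty vector replicate 2, 15 members were above 0 and 21 below. The 95% interval lay within 1.5-fold for 9 members and within 2-fold for 27. Empty vector replicate 2 was above all 5 other PANC-1 libraries in 21 members, below them in 9 and among them in 6. These places were not counted over all rows. Against the mean of the other empty vector libraries, with 0.5 CPM added, it was higher in 24 members and lower in 12. Of 11284 protein-coding rows of at least 1 CPM, 5783 were higher and 5501 lower. The median log2 ratio was 0.44 in the members and 0.03 in those rows.

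Without empty vector replicate 2, the members that passed came from most of the machines. On the higher side were the Lon protease, a motor subunit and an outer membrane assembly gene, and on the lower side the ClpXP unfoldase, the matrix Hsp70 with an exchange factor, a small Tim, and the pore and a receptor of TOM. In that fit 3 of 36 members rose (LONP1, MTX1 and TIMM44) and 6 fell (CLPX, GRPEL1, TIMM8A, TOMM40, HSPA9 and TOMM70), which is 25% of the members beside 20.7% of 16640 rows (11.4% higher and 9.25% lower). The members' share is near that of all rows. Their fold changes were small, from -0.27 to 0.36 on the log2 scale among those called, with a median over all 36 of -0.06 (all rows 0.01). The interval lay within 1.5-fold for 32 members. With a K17 library left out as well, 5 members were called without K17 replicate 2 or K17 replicate 3, and 7 without K17 replicate 1. The share of all rows called in these fits is not given here.

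LONP1 was called on the higher side. It had 57.4, 62.3 and 62.1 CPM in K17 libraries, against 47.5, 68.8 and 46.4 CPM in empty vector libraries. Replicate 2 was the highest of all 6 libraries, while the other empty vector libraries were below every K17 library. With all libraries the log2 fold change was 0.16 (edgeR adjusted p 0.792), and without replicate 2 it was 0.36 ± 0.05, or 1.29-fold (95% interval 1.19 to 1.40), with an adjusted p of 0.00282 that stayed below 0.05 under all 11 alternatives run without that library.

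CLPX was called on the lower side. It had 116, 113 and 117 CPM in K17 libraries, against 139.6, 76.4 and 136 CPM in empty vector libraries, so that replicate 2 lay below all K17 libraries and replicates 1 and 3 above them. With all libraries the log2 fold change was -0.03 (edgeR adjusted p 0.974), and without replicate 2 it was -0.26 ± 0.03 (0.00146), called under all 11 alternatives. Its peptidase partner CLPP had 10.7, 11.0 and 11.3 CPM in K17 libraries against 9.33, 24.0 and 11.1 CPM in empty vector libraries, with replicate 2 highest, and missed the threshold in both fits (-0.43 and 0.11; edgeR adjusted p 0.724 and 0.534).

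Sequence before the start is shown for this pair of protease genes, which were picked because they were called in opposite directions. Both calls were kept under every alternative without replicate 2, as was that of TIMM8A, whose sequence is not shown. Within the 250 bases before the most upstream RefSeq start (GRCh38.p14), the stretches are the longest ones that no GENCODE 29 exon covers. They lie on the minus strand at chr19:5720573-5720676 for LONP1 and chr15:65185343-65185592 for CLPX. For CLPX the stretch fills all 250 bases searched. Capitals mark matches on either strand: in LONP1 3 matches to GCGCATG, the core bound by the factor NRF1, the first at position 25 and overlapping the next one, and in CLPX the reverse complement of CCAAT at position 58.
LONP1: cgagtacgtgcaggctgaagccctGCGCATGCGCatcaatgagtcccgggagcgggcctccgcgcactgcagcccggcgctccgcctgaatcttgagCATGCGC
CLPX: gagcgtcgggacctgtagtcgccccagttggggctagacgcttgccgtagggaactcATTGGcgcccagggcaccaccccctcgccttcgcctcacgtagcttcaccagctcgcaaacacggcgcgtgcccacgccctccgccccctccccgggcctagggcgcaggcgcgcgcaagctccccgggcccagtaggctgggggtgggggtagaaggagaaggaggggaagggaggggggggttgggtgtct

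LONP1 (ENSG00000196365.11) lies at chr19:5691834-5720572 and CLPX (ENSG00000166855.9) at chr15:65148219-65185342, both on the minus strand of GRCh38. RefSeq windows from 250 bases before to 50 bases after a start were found for 33 members, 38 windows in all, and motifs were searched on both strands. The letters GCGCATG were in 13.2% of member windows (LONP1, PAM16, TIMM9, TIMM10B and TOMM7) and in 5.26% of 22199 protein-coding windows. The letters CCGGAAG, the core bound by ETS factors, were in 34.2% of member windows (13 members, LONP1 among them) and 12.8% of all, CACGTG, the E-box, in 18.4% and 8.34%, and CCAAT in 31.6% and 34.7%. HSPD1 and HSPE1 are both among the 7 members with CACGTG, and their windows overlap, so the same match may be counted for both. A match is only a run of letters in the window.

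Among the TOM genes, TOMM40 had 79.8, 74.0 and 75.0 CPM in K17 libraries against 90.5, 147 and 85.8 CPM in empty vector libraries. Every empty vector library was above every K17 library, yet replicate 2 was far above the rest: the log2 fold change was -0.50 with all libraries (edgeR adjusted p 0.559) and -0.21 ± 0.05 without it (0.0184, called under 8 of 11 alternatives). TOMM70 had 458, 453 and 447 CPM in K17 libraries against 489, 305 and 476 CPM in empty vector libraries, with replicate 2 the lowest of the 6. Its log2 fold change was 0.10 with all libraries (edgeR adjusted p 0.881) and -0.09 ± 0.03 without replicate 2 (0.0492), a call kept under 5 of 11 alternatives. TOMM20, whose values are given above, had log2 fold changes of 0.26 and -0.03 in these fits and passed in neither.

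MTX1, a metaxin that works with SAMM50 in outer membrane assembly, had 36.9, 39.3 and 33.9 CPM in K17 libraries against 29.1, 53.1 and 30.1 CPM in empty vector libraries. Replicate 2 was above and the other empty vector libraries below all K17 libraries, and without replicate 2 the log2 fold change was 0.31 ± 0.07 (edgeR adjusted p 0.0215, called under 8 of 11 alternatives). SAMM50 itself had 2.45, 2.51 and 3.73 CPM in K17 libraries against 2.7, 2.57 and 3.29 CPM in empty vector libraries, which overlapped, and passed in neither fit.

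TIMM8A, a small Tim chaperone of the intermembrane space, was, of the 9 calls, the one whose estimate replicate 2 moved least. It had 44.8, 45.1 and 45.3 CPM in K17 libraries against 53.4, 50.9 and 54.7 CPM in empty vector libraries, so all 3 K17 libraries were below all 3 empty vector libraries. The log2 fold change was -0.23 with all libraries (edgeR adjusted p 0.549) and -0.27 ± 0.04 without replicate 2 (0.00287), called under all 11 alternatives. TIMM50 had 369, 356 and 343 CPM in K17 libraries against 374, 655 and 381 CPM in empty vector libraries, without overlap, but missed the threshold in both fits (-0.40 and -0.09; edgeR adjusted p 0.648 and 0.117).

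In the import motor the called genes did not share a direction. HSPA9, the motor's ATPase, had 134, 142 and 141 CPM in K17 libraries against 154, 89.5 and 164 CPM in empty vector libraries. Replicate 2 was lowest of the 6 and the other empty vector libraries highest, and the log2 fold change was 0.03 with all libraries and -0.20 ± 0.04 without it (edgeR adjusted p 0.0139, called under 10 of 11 alternatives). GRPEL1, the main nucleotide exchange factor of HSPA9, had 32.3, 30.5 and 29 CPM in K17 libraries against 38.3, 46.0 and 35.6 CPM in empty vector libraries.

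For GRPEL1 the groups did not overlap, with log2 fold changes of -0.38 (edgeR adjusted p 0.440) and -0.27 ± 0.06 (0.0244, called under 8 of 11 alternatives). TIMM44, which holds HSPA9 at the TIM23 channel, had 41.0, 39.2 and 41.0 CPM in K17 libraries against 36.0, 55.7 and 35.8 CPM in empty vector libraries. Replicate 2 was highest and the other empty vector libraries lowest, and without replicate 2 the log2 fold change was 0.17 ± 0.05 (0.0425, called under 2 of 11 alternatives).

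The processing peptidase and the chaperonin gave no call in either PANC-1 fit. PMPCB had 99.7, 101 and 103 CPM in K17 libraries against 95.9, 99.3 and 94.9 CPM in empty vector libraries, and was the only member higher in every K17 library than in any empty vector library (beside 14.5% of all rows), while 7 members were lower in every one (beside 11.1%). Its log2 fold changes were 0.07 and 0.08. HSPD1 had 112, 106 and 94.5 CPM in K17 libraries against 111, 20.3 and 125 CPM in empty vector libraries, and HSPE1 had 16.2, 16.6 and 16.5 CPM against 17.7, 22.0 and 14.0 CPM in empty vector libraries.

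**Figure D2:**
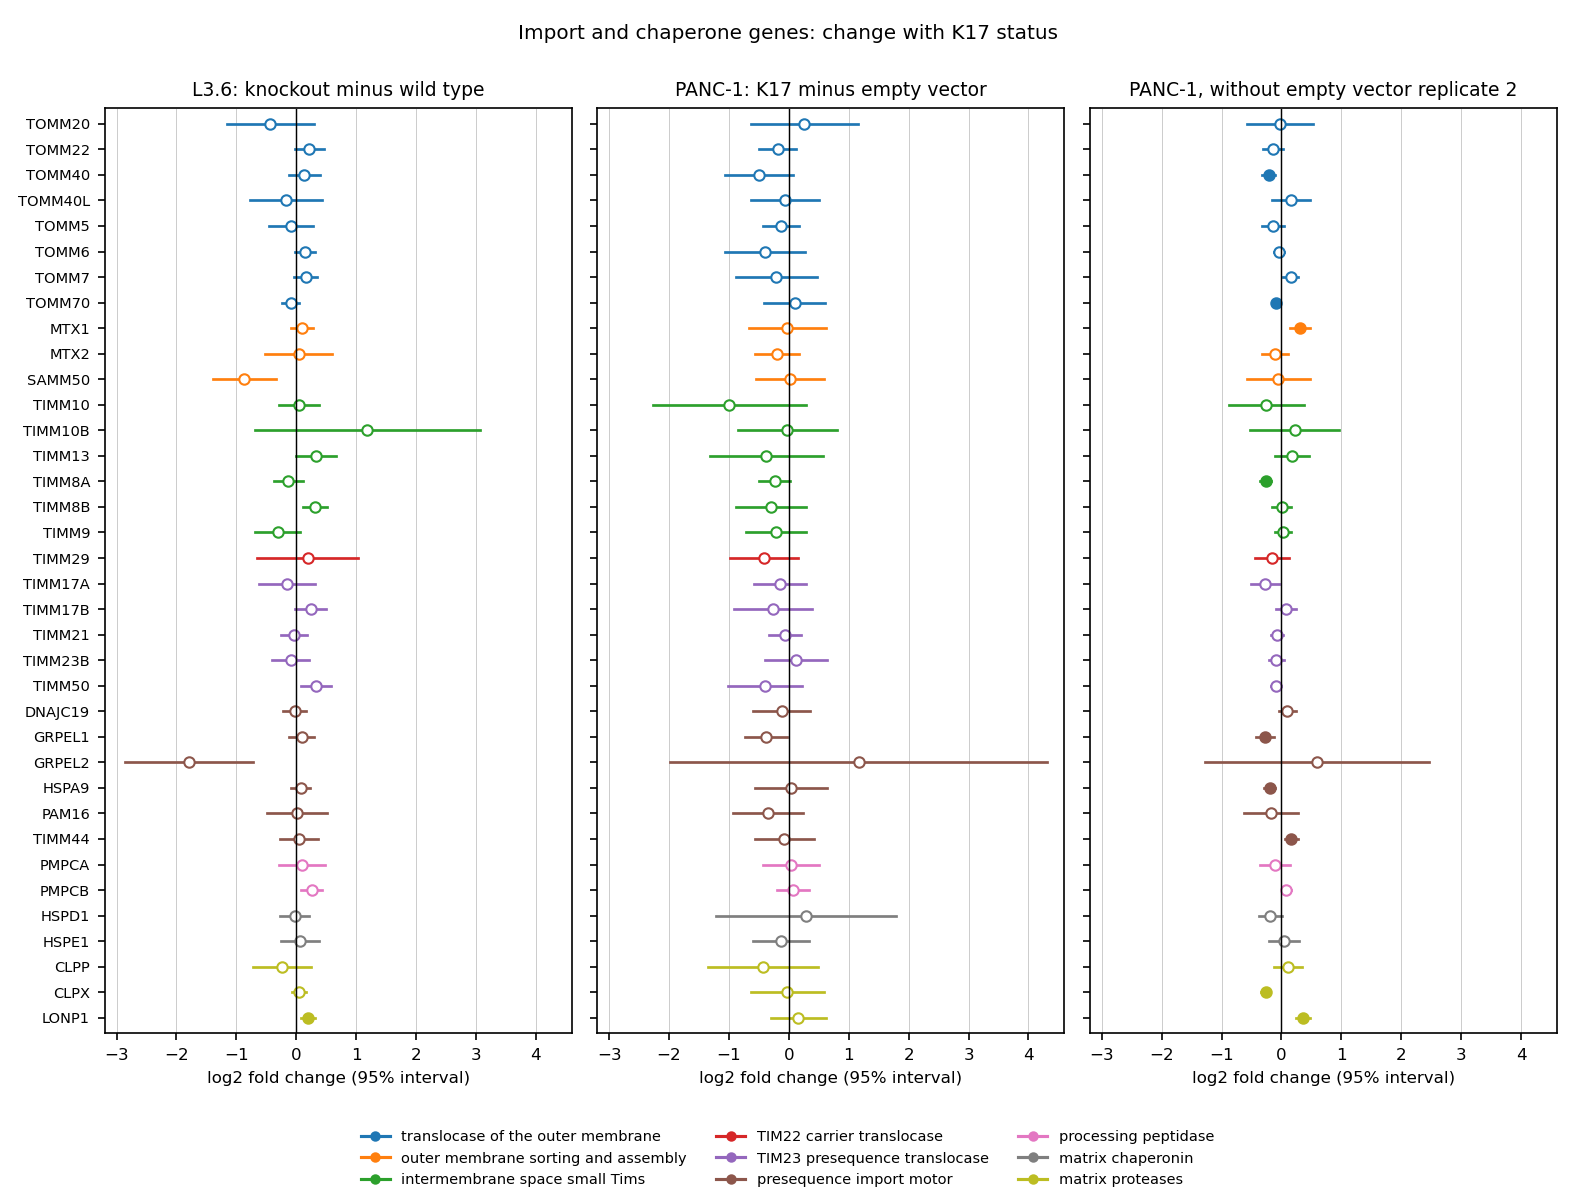
Log2 fold change of each tested member with its 95% interval, for L3.6 knockout over wild type, PANC-1 K17 over empty vector, and the same without empty vector replicate 2; colours give the role. The interval lies within 1.5-fold for 25 of 36 members in L3.6, for 9 in PANC-1 with all libraries and for 32 without replicate 2.

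HSPD1 and HSPE1 encode the 2 parts of one chaperonin and are transcribed away from each other on chromosome 2, with 104 bases between their RefSeq starts. In empty vector replicate 2 they parted: relative to the mean of the other empty vector libraries, and with 0.5 CPM added to each value, HSPD1 was at a log2 ratio of -2.51 and HSPE1 at 0.46. HSPD1 and HSPE1 together made up 1.66% of the summed member CPM there, against 5.18% to 6.09% elsewhere in PANC-1. The other extremes of this library were GRPEL2 at -2.99, TIMM10 at 1.52, and TIMM13 and CLPP at 1.20 each. GRPEL2 had 2 counts there, or 0.0294 CPM against 1.28 and 6.15 CPM in the other empty vector libraries, so the size of its ratio is set by the added 0.5 CPM.

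The members that this library showed above the other 5 differed in make-up from those it showed below. The median GC content of the longest transcript was 53.5% in the 21 above, 42.3% in the 9 below and 42.0% in the 6 within, and the median length was 1592, 3387 and 3016 nt. Across the 36 members the log2 ratio had a Spearman rho of 0.64 with GC content and -0.67 with length, and across 11284 protein-coding rows of at least 1 CPM 0.52 and -0.42. These are descriptions across genes of 1 library, and genes are not independent replicates. The ratio of the highest over the lowest library of a group had a median over members of 1.12 in PANC-1 K17 and 1.05 in the other empty vector libraries. It was 1.14 in L3.6 knockout and 1.26 in L3.6 wild type cells, against 1.60 in empty vector cells with replicate 2. The ratio without replicate 2 spans fewer libraries than the others, which tends to lower it. In PANC-1 K17, the other empty vector libraries, L3.6 knockout and L3.6 wild type, the ratio was above 2 for 1, 1, 2 and 3 members. With replicate 2 it was above 2 for 6. Single members reached far more: 26.4 for TIMM10B in L3.6 wild type cells, from 70, 10 and 2 counts, and 4.81 for GRPEL2 in the other empty vector libraries.

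**Figure D3:**
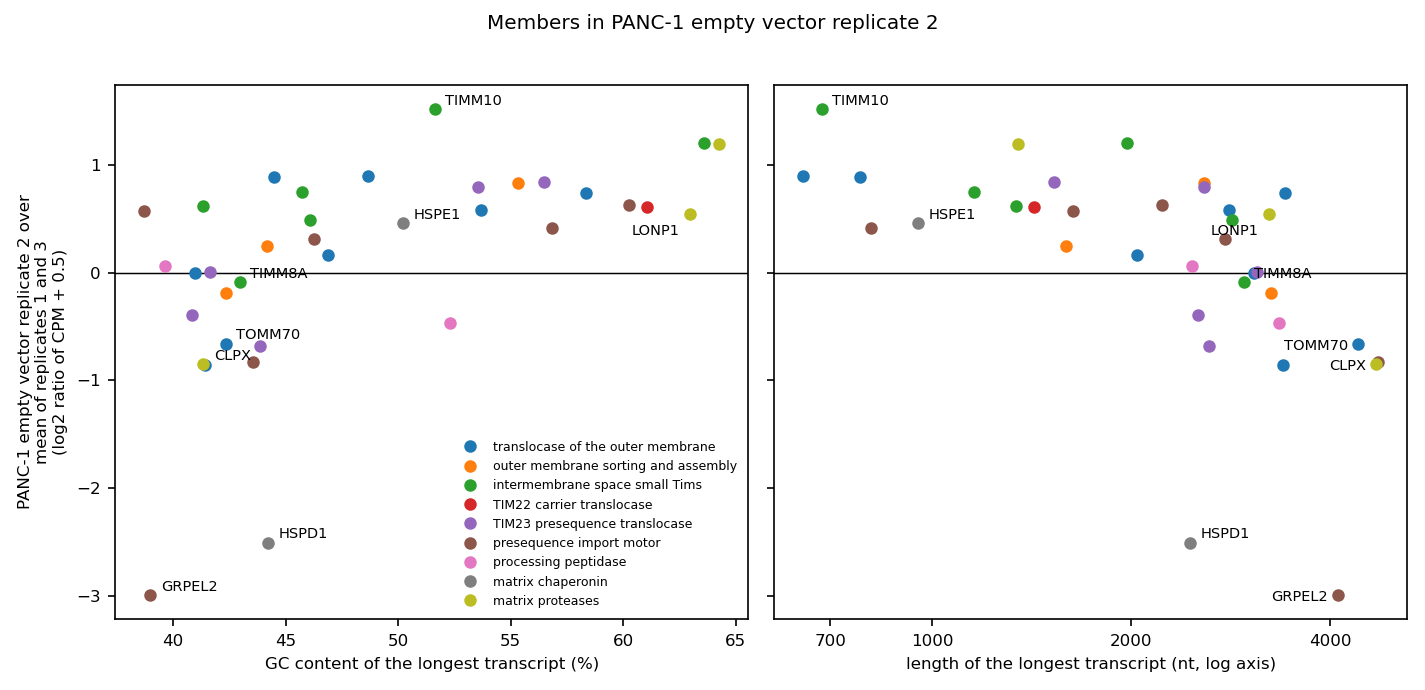
Log2 ratio of PANC-1 empty vector replicate 2 over the mean of empty vector replicates 1 and 3 for 36 members, against the GC content (left, percent) and length (right, nucleotides, log axis) of the longest transcript. The ratio has 0.5 CPM added to each value; GRPEL2 (-2.99, from 2 counts in replicate 2) and HSPD1 (-2.51) lie lowest and TIMM10 (1.52) highest, and colours give the role.

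The effects of K17 in the 2 lines were set against each other as an interaction: PANC-1 K17 minus empty vector, minus L3.6 wild type minus knockout, so that a positive value means that the change going with K17 was higher in PANC-1 than in L3.6. With all 12 libraries 0 of 36 members passed edgeR's test (lowest adjusted p 0.274; 0 higher and 2 lower at an unadjusted p below 0.05, against 6.82% and 7.93% of all rows), beside 1.54% of 17583 rows. DESeq2 called 0 (beside 4.45% of all rows) and limma voom 7 (beside 15.9%). The interval of the difference lay within 2-fold for 22 members.

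Without PANC-1 empty vector replicate 2, LONP1 alone passed, beside 11.5% of 15758 rows. The difference was 0.63 on the log2 scale with an edgeR adjusted p of 0.00284, and it was called under all 17 alternatives run without that library, at 0.48 to 0.68 with a highest adjusted p of 0.0297. Without L3.6 wild type replicate 1 as well, 7 members passed (beside 17.2% of all rows). Without L3.6 knockout replicate 1 or 2 or wild type replicate 2 or 3, 2 members passed. The share of all rows called in the fits with 2 is not given here. LONP1 was thus higher in the L3.6 knockout libraries and, against empty vector replicates 1 and 3, higher in the PANC-1 libraries with added K17. Empty vector replicate 2 was above all K17 libraries, at 68.8 CPM. With all libraries the LONP1 difference was 0.31 (adjusted p 0.584), so the call depends on leaving out that library. For CLPX the difference without replicate 2 was -0.15 (adjusted p 0.374), and for HSPA9 -0.05 (0.850).

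Other genes of mitochondrial protein import and quality control were listed by role, 34 in all, of which 32 have rows and 31 were tested. In L3.6, 1 rose and 1 fell, beside 9.61% of all rows called, and the median log2 fold change was -0.05. MTCH1, a paralogue of the outer membrane insertase MTCH2, had 217, 225 and 224 CPM in knockout libraries against 202, 174 and 176 CPM in wild type libraries, without overlap (0.27 ± 0.07, edgeR adjusted p 0.0371), a call lost without knockout replicate 2 or 3 or wild type replicate 2 or 3. APOOL, a cristae subunit, had 0 counts in all 3 knockout libraries against 54, 26 and 68 in wild type libraries (edgeR adjusted p 0.00206). Against a floor of 3 counts over the knockout group, the row was at least 53.4-fold higher in wild type libraries, a bound that covers counting error only. DESeq2 gave it no adjusted p. In PANC-1 its CPM were 1.23, 10.1 and 2.89 in K17 libraries against 0.0568, 28.0 and 14.5 in empty vector libraries. These came from 76, 601 and 179 counts against 4, 1907 and 927. Libraries of the same PANC-1 group thus differed widely in this row, so the row is unreliable and its change in L3.6 is uncertain. The cause of this spread was not tested.

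In PANC-1, 0 of the 31 passed with all libraries in edgeR's test, beside 0.644% of all rows. At an unadjusted p below 0.05, 0 were higher and 1 lower, beside 6.47% and 3.56% of all rows. DESeq2 called 0 and limma voom 3, beside the shares of all rows given above for these tests with all PANC-1 libraries. Without empty vector replicate 2, TIMMDC1, an assembly factor of respiratory complex I, rose (0.19 ± 0.04, edgeR adjusted p 0.00957). MTCH2 fell (-0.34 ± 0.06, 0.00585), as did the inner membrane proteases AFG3L2 (-0.15 ± 0.03, 0.0166) and YME1L1 (-0.13 ± 0.03, 0.0176). These are 4 of 31, beside 20.7% of all rows, and the median over the list was 0.01.

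Chaperones of the cytosol and endoplasmic reticulum, which hold precursors before import or fold other proteins, were listed for comparison. In L3.6, beside 9.61% of all rows called, 1 of 16 tested rose, BAG3, a co-chaperone of Hsp70, with 295, 318 and 309 CPM in knockout libraries against 247, 224 and 209.6 CPM in wild type libraries (0.44, edgeR adjusted p 0.00609). In PANC-1 without empty vector replicate 2, 0 of 17 rose and 6 fell (HSPH1, HSP90AA1, BAG3, CCT3, CCT5 and TCP1), beside 11.4% and 9.25% of all rows, with a list median of -0.22. TCP1, a subunit of the cytosolic chaperonin, fell by 0.69 on the log2 scale. Of the factors tied to the mitochondrial stress response and to mitochondrial gene expression, none of the 9 tested in L3.6 was called by edgeR, beside 9.61% of all rows. At an unadjusted p below 0.05, 3 were higher and 0 lower, beside 14.9% and 12.8% of all rows. In PANC-1 without that library, ATF4 (0.25) and DDIT3 (0.48), transcription factors of the stress response, rose, and GABPA, TFAM and YY1 fell (-0.22, -0.26 and -0.34), which is 5 of 9 beside 20.7% of all rows. With all PANC-1 libraries 0 of 17 and 0 of 9 passed edgeR's test, beside 0.644% of all rows. At an unadjusted p below 0.05, 0 chaperones were higher and 4 lower, and 0 factors either way. The shares of all rows were 6.47% higher and 3.56% lower.

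Some member rows may share reads with other genes. Exon bases of 24 members overlap another annotated gene, 20 of them a gene on the opposite strand, and the strand setting of the counting is not given in the sources used here. For TIMM8B 30.1% of exon bases are shared with NKAPD1 on the opposite strand, and for PAM16, a motor subunit, 21.9% with the readthrough gene CORO7-PAM16. HSPE1 has 26 pseudogene rows that together held 12.2% to 41.7% of its count in a library, and HSPD1 18 rows with 2.19% to 12.2%. TIMM23B is nearly identical in sequence to TIMM23, so its row is uncertain. In bulk RNA, fewer cells of a type and less RNA per cell cannot be told apart.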

How the data were processed

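The 12 human libraries were, per the labels' protocols, made with a TruSeq RNA kit from RNA extracted with TRIzol. The authors deposited whole-number counts for each gene and sample, with no normalization. GRCh38, kallisto 0.46.2, STAR 2.7.3a and bcl2fastq 1.8.4 appear in the submitters' processing notes. Not given in the sources used here are the tool that made the counts, the strand setting and the annotation. GENCODE 29 gave names and coordinates, and RefSeq (GRCh38.p14) the promoter windows. The mouse libraries were not used here.

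The 6 libraries of a line went into a fit of their own with edgeR 4.0.16 in R 4.3.3 (TMM factors, filterByExpr, robust quasi-likelihood test), with Benjamini-Hochberg adjustment over all rows kept and a threshold of 0.05. CPM use TMM-scaled library sizes, computed separately for each line. Standard errors were taken from the test statistic. The script was tested on simulated data. The interaction used all 12 human libraries in 1 fit. Totals ran from 9485257 to 70789559 counts; a floor is 3 counts and covers counting error only. The alternatives tried were upper quartile and RLE factors, all rows without a filter, DESeq2 1.42.0, limma 3.58.1 voom with quality weights, the replicate block, removal of the row AC010970.1, and each library left out. Those run without PANC-1 empty vector replicate 2 were chosen after seeing the data.

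The members and lists were chosen with earlier results of these data known. Genes with values per library are the members called in any comparison, core genes of each machine (HSPA9, HSPD1, HSPE1, TOMM20, TOMM40, TOMM70, TIMM50, PMPCB, SAMM50, LONP1 and CLPP) and up to 6 called genes of the list of other import genes. GRPEL2 and BAG3 fall outside that rule and were chosen after their values were seen, as were the stress factors named.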

Additional observations from a re-analysis of the deposited data

Results flagged for a closer look

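For 1 member and 1 of the other import genes the effects of K17 in PANC-1 and L3.6 differed in the interaction test without PANC-1 empty vector replicate 2, which set PANC-1 K17 minus empty vector against L3.6 wild type minus knockout. LONP1, the matrix Lon protease, had a difference of 0.635 on the log2 scale (edgeR adjusted p 0.00284), with L3.6 knockout over wild type at 0.20 and PANC-1 K17 over empty vector at 0.36; with all 12 libraries the difference was 0.31 (adjusted p 0.584). PITRM1, the matrix peptidase that degrades cut presequences, had a difference of 0.702 (edgeR adjusted p 0.0268), and 0.09 with all 12 libraries (0.954). It had 23.9, 18.1 and 18.4 CPM in L3.6 knockout libraries against 14.8, 16.7 and 13.8 CPM in wild type libraries, and 25.7, 28.5 and 30.5 CPM in PANC-1 K17 libraries against 25.3, 52.9 and 23.3 CPM in empty vector libraries. For PITRM1 neither line passed alone (L3.6 0.42, adjusted p 0.120; PANC-1 without that library 0.21, adjusted p 0.145).

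Genes of the comparison lists also differed between the lines in that test. Among the chaperones the differences were 0.986 for HSPB1, -0.805 for CCT8, -0.594 for TCP1 and -0.46 for HSP90B1 (edgeR adjusted p 0.0382, 0.0195, 0.0131 and 0.0351). Among the stress response factors they were 0.483 for ATF4 and 0.562 for DDIT3 (edgeR adjusted p 0.0283 and 0.0337), and among the markers 0.464 for KRT19, 1.18 for KRT7, 2.33 for COL1A1 and -2.7 for COL3A1. With all 12 libraries only the differences of COL1A1 (1.85, edgeR adjusted p 0.0189) and COL3A1 (-2.73, 9.27e-05) passed among the listed genes.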

How the results depend on the processing

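The count of 1 member called in L3.6 was 2 with upper quartile factors (GRPEL2 and SAMM50, beside 9.68% of all rows), 2 with no filter (SAMM50 and TIMM8B, 5.85%), 4 with DESeq2 (GRPEL2, LONP1, SAMM50 and TIMM50, 12.1%), 7 with limma voom (16.5%) and 0 with the replicate block (4.79%). With RLE factors it was again 1, but the gene was SAMM50. Leaving out each library gave 0 to 10 calls: 10 without wild type replicate 1 (8 higher and 2 lower, beside 17.2% of all rows), 1 without knockout replicate 1 (SAMM50), and 0 without any of the other 4. In PANC-1 the count of 0 was 6 with limma voom (beside 18.7% of all rows) and 0 to 9 with a library left out, 9 without empty vector replicate 2. The difference between the lines had 7 calls with limma voom (15.9% of all rows) and 0 to 1 with a library left out.

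Without PANC-1 empty vector replicate 2, the 9 calls in PANC-1 were 7 to 9 under the other settings and 5 to 7 with a K17 library left out as well. The single call of the difference between the lines, LONP1, was then 5 calls with upper quartile factors (15.9% of all rows), 3 with DESeq2 (16.6%), 10 with limma voom (23.3%), 4 without the row AC010970.1 (14%) and 1 to 7 with a library left out (7 without L3.6 wild type replicate 1, 17.2%). The 2 calls among the other import genes in L3.6 were 4 with upper quartile factors, 2 with DESeq2 (MTCH1 and OXA1L, with no adjusted p for APOOL), 1 with the replicate block (APOOL) and 1 to 2 with a library left out. The 0 calls among them in PANC-1 were 3 with limma voom and 0 to 4 with a library left out. The cause of these changes was not tested. Where a PANC-1 fit had a lone empty vector library, it was assumed to vary like the K17 ones. Counts printed without a share of all rows are not set against that share.

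Deviations from group means of same-numbered libraries had correlations of -0.12, -0.04 and 0.02 in L3.6 and 0.05, 0.09 and 0.02 in PANC-1. In PANC-1, empty vector replicate 2 lay far from the rest of its group and sets these deviations. A shared culture or day might therefore not show there. The labels do not state a pairing, and these values cannot decide whether the numbers pair the libraries. Not every library correlated best with its own number. The replicate block left 0 members called in L3.6 (4.79% of all rows), 0 in PANC-1 and 0 in the difference between the lines (0.398% of all rows).

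Several log2 fold changes changed sign. In L3.6 these were TIMM44 (-0.0011) and CLPX (-0.011) with upper quartile factors and HSPD1 (0.013) with no filter. In PANC-1 they were SAMM50 with RLE factors (-0.0065), upper quartile factors (-0.0604), DESeq2 (-0.0060) and limma voom (-0.0404), HSPA9 with upper quartile factors (-0.0433) and limma voom (-0.18), PMPCB with upper quartile factors (-0.0202), MTX1 (0.0282) and CLPX (0.0228) with the replicate block, and with limma voom TOMM20 (-0.0318), TOMM70 (-0.0912), MTX1 (0.31), TIMM44 (0.16), HSPD1 (-0.155), HSPE1 (0.027) and CLPP (0.13). Without empty vector replicate 2, HSPE1 was -0.0030 with upper quartile factors. With each library left out, the ranges that crossed 0 were -0.092 to 0.15 for TIMM44, -0.125 to 0.0659 for HSPD1 and -0.0129 to 0.22 for HSPE1 in L3.6. In PANC-1 they were -0.20 to 0.14 for SAMM50, -0.26 to 0.12 for CLPX, -0.0276 to 0.445 for TOMM20, -0.0949 to 0.21 for TOMM70, -0.18 to 0.31 for MTX1, -0.20 to 0.19 for HSPA9, -0.18 to 0.17 for TIMM44, -0.19 to 0.65 for HSPD1, -0.27 to 0.047 for HSPE1 and -0.67 to 0.11 for CLPP. Without empty vector replicate 2 they were -0.28 to 0.10 for TOMM20, -0.0103 to 0.22 for CLPP, -0.27 to 0.0903 for SAMM50 and -0.12 to 0.23 for HSPE1.

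Depth limits the low rows, and L3.6 has fewer counts than PANC-1. GRPEL2, TIMM10B, TIMM29, SAMM50 and TOMM20 lie below 20 CPM in all libraries, as do TOMM20L, TOMM5, TIMM10, TIMM17A, PAM16 and PMPCA.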
